A study of Arabidopsis thaliana with 5 samples.

Results

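The regions described here are FLAG-NDX peaks of Arabidopsis thaliana that were chosen by their coordinates, as those with 1 bp or more in common with a peak of NDX-GFP. There were 256 of them among the 2243 peaks of the FLAG-NDX list (11.4%), and they met 256 of the 583 peaks of the NDX-GFP list (43.9%), so that each shared region is a pair of 1 peak from each list. The overlap itself chose the members, so their number is a description, and nothing is read from it. Both lines carried the tagged protein, FLAG-NDX or NDX-GFP, in the ndx1-1(FRI) flc-2 background, and 10-day-old seedlings were harvested. Chromatin immunoprecipitation was labelled as made with an anti-FLAG antibody (2 samples) or an anti-GFP antibody (2 samples), and 1 input sample came from the FLAG-NDX line. The extraction protocol given with the same samples describes deproteinised nucleic acid and S9.6, which recognises hybrids of DNA and RNA, and the peak lists do not settle which procedure was followed. An ndx1-4 line without a tag is named among the harvested plants and was not analysed here. The promoters that drive the tagged genes and the number of transgenic lines are not given in the sources used here.

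For each tagged line a single peak list was available, so the values below have no replicate error, and no test between the lines was possible. The way in which the 2 immunoprecipitations of each line entered its list is not given in the sources used here. The lists hold no read counts, so the depth behind each peak is unknown. Each peak has a score whose unit is not stated, and scores of the lists are therefore set side by side and not converted.

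NDX (NODULIN HOMEOBOX) is a plant nuclear protein with an atypical homeodomain. It is best known for binding at the end of the flowering repressor gene FLC, where it stabilises an R-loop and limits the antisense transcript COOLAIR, and it has been linked to Polycomb group proteins and to small RNAs of heterochromatin. In Arabidopsis the heterochromatin lies mostly round the centromeres, in sequence made of satellite repeats, transposons and pseudogenes with few active genes. A transposon is a DNA segment that can move or copy itself, and copia, Athila and gag-pol elements move through RNA, whereas CACTA (En/Spm), Mutator and hAT elements move as DNA.

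The sequences that recur in the results are shown here, read from the plus strand of the TAIR10.1 assembly at the coordinates of the FLAG-NDX peak. The peak with the highest FLAG-NDX score (433) lay upstream of the cytochrome P450 gene CYP96A13 and held no 31-base word that occurred elsewhere in the genome:
chr5:673306-673500: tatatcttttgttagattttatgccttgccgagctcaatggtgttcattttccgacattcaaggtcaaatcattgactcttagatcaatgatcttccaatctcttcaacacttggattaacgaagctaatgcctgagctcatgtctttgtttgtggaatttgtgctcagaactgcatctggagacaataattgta
The largest set of members with shared sequence was a satellite array on chromosome 5. Capitals mark the 31-base words that a peak shared with another member of the same set:
chr5:11828596-11828745: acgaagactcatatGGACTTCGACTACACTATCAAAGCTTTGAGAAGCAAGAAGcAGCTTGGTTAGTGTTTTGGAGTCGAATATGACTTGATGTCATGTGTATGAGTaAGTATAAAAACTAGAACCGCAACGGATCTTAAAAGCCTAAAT
chr5:11874406-11874585: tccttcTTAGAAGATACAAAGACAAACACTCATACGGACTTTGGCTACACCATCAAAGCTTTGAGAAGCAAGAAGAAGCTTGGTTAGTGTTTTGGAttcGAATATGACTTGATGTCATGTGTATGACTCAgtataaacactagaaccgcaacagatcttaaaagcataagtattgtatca
chr5:11969716-11969895: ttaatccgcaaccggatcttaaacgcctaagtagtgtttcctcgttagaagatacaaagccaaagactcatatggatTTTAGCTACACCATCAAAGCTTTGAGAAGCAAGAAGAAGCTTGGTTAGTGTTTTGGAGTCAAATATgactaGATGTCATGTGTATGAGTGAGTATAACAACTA
The next set lay in a tandem array on chromosome 1, and capitals again mark words shared within the set:
chr1:14660506-14660805: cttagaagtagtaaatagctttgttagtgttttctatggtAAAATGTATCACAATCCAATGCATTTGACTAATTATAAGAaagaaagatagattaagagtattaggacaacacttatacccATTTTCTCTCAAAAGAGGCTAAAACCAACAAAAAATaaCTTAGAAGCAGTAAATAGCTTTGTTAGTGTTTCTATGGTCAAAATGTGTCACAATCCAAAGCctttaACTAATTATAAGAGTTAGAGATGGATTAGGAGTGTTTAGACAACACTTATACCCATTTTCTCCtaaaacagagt
chr1:14726536-14726715: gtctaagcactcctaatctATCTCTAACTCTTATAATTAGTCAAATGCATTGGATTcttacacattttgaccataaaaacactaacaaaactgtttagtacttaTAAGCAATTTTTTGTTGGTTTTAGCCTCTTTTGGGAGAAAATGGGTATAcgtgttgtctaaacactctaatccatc
chr1:14940556-14940825: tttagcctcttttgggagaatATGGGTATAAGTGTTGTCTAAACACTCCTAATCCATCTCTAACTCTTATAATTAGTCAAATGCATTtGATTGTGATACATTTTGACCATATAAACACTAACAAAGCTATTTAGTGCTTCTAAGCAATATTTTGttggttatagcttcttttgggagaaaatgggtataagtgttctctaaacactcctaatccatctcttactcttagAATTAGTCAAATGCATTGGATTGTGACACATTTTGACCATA
A stretch of chromosome 1 held members rich in the telobox, AAACCCTA or its complement TAGGGTTT, which resembles the repeat of plant telomeres. Capitals mark the telobox, and the last peak is a similar region of chromosome 4:
chr1:15148351-15148485: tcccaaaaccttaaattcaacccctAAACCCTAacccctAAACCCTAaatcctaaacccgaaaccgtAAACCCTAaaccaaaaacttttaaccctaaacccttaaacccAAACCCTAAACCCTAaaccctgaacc
chr1:15360811-15360975: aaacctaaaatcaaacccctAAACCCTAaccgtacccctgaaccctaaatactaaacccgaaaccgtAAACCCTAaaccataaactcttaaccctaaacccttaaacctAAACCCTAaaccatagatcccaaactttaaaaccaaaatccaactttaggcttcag
chr1:15435391-15435600: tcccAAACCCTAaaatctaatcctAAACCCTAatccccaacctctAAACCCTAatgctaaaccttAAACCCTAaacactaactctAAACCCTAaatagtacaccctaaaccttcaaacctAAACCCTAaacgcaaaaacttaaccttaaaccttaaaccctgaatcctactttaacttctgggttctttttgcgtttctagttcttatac
chr4:3235861-3236070: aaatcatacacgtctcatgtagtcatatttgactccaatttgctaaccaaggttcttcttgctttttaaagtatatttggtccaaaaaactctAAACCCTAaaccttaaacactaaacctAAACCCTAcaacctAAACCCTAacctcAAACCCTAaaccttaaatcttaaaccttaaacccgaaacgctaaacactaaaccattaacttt
The peaks in the pseudogenes AT1G32840 and AT3G32389 lie on different chromosomes and belong to the same set. They are joined through the member in AT2G06430, which is not printed, and share no 31-base word with each other. Capitals mark words found in another member of their set:
chr1:11897026-11897205: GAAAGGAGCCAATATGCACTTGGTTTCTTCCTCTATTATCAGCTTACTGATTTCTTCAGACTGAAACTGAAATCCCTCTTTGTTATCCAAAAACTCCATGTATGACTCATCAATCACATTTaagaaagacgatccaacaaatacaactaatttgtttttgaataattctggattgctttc
chr3:13337791-13337970: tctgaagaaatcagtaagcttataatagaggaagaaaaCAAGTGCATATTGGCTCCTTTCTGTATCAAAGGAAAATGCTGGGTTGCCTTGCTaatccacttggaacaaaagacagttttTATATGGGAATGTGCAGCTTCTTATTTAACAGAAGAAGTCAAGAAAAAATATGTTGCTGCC
The last sequences belong to the pairs with the highest NDX-GFP scores, beside the pseudogene AT1G24938, in the non-coding RNA gene AT3G06485 and upstream of the thionin gene AT1G34830. Capitals mark the GA repeat (GAGAGA or its complement TCTCTC), the only motif of the list searched below that was present:
chr1:8789266-8789475: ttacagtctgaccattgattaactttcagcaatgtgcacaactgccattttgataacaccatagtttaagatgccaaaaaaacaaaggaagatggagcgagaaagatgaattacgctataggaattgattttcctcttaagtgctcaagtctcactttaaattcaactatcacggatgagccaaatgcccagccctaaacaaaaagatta
chr3:14953711-14953815: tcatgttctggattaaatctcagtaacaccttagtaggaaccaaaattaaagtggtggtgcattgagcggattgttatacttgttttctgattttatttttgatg
chr1:12794071-12794280: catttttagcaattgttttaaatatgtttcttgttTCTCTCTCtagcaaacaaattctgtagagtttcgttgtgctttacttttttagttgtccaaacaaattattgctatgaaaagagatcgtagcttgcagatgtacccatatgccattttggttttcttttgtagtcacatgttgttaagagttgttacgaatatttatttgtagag

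The 2 peaks of a pair lay close together. Their midpoints were at most 270 bp apart with a median of 30 bp, and in 180 of 256 pairs they were within 50 bp. Peak edges fell at multiples of 15 bp, and 7 pairs had the same start and the same end. In a further 64 pairs 1 edge was shared. The overlap ranged from 15 to 465 bp with a median of 112.5 bp, which was a median of 75% of the FLAG-NDX peak and 87.5% of the NDX-GFP peak. The NDX-GFP peak was contained in the FLAG-NDX peak in 96 pairs and the reverse held in 42. Its midpoint was at a higher coordinate in 115 pairs and at a lower one in 121. At the edge of the rule, the smallest overlap of 15 bp was found in 2 pairs, chr4:3112636-3112770 (FLAG-NDX score 189) and chr5:11961526-11961915 (score 129). Just outside it, 4 FLAG-NDX peaks ended at the base beside an NDX-GFP peak with a gap of 0 bp, among them chr1:12800026-12800220 (score 125), and 20 unshared peaks in all lay within 150 bp of an NDX-GFP peak.

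Shared FLAG-NDX peaks were wider than the 1987 peaks of the same list outside the overlap, with medians of 165 and 135 bp, and shared NDX-GFP peaks than the 327 outside it, with 135 and 120 bp. A wider peak has more bases at which an overlap can occur, and the part of width in the membership was not tested. The FLAG-NDX score of the members ranged from 87 to 433 with a median of 129.5, and the NDX-GFP score from 84 to 200 with a median of 109. The FLAG-NDX score was the higher number in 201 pairs and the NDX-GFP score in 53. Of the 226 FLAG-NDX peaks with a score of 166 or more, 43 were shared (19.0%), and of the 235 with a score of 96 or less, 11 were shared (4.68%). Of the 60 NDX-GFP peaks with a score of 133 or more, 34 were shared (56.7%). Only 12 pairs had a FLAG-NDX score of 166 or more and an NDX-GFP score of 133 or more. Across pairs, Spearman's correlation of the scores was 0.29 in the pericentromeric zones (n = 175) and 0.36 in the arms (n = 81), given as a description because neighbouring and repeated regions are not independent. The ranking of a region in the FLAG-NDX list was only loosely followed in the NDX-GFP list.

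**Figure D1:**
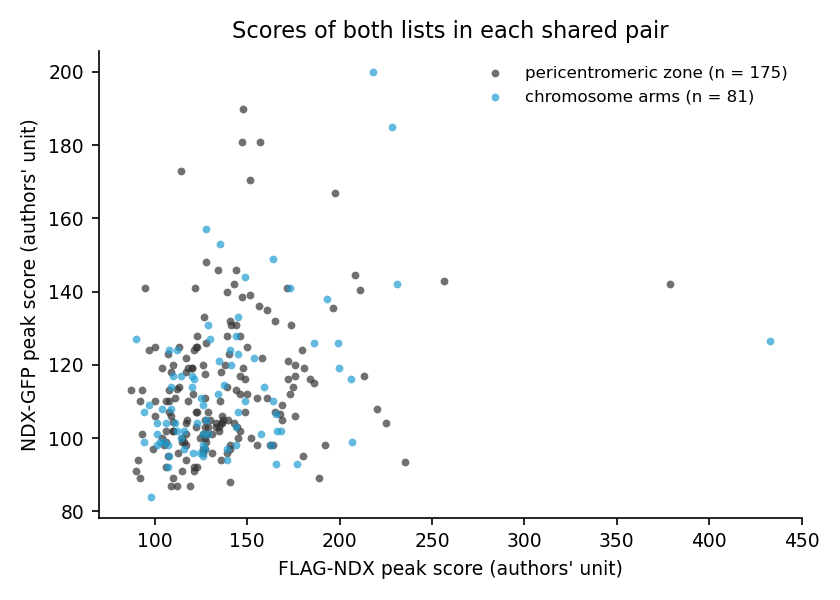
FLAG-NDX score (x axis) against NDX-GFP score (y axis), both in the authors' unit, for each shared pair. Points are coloured by location in a pericentromeric zone (175 pairs) or a chromosome arm (81 pairs). The peak upstream of CYP96A13, at 433 on the x axis and 126.5 on the y axis, stands farthest to the right, and no NDX-GFP score exceeds 200.

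The members gathered round the centromeres. A pericentromeric zone was defined for each chromosome as the sequence within 2.5 Mb of the centre of its 1 Mb window with least protein-coding sequence, and 175 of 256 shared peaks (68.4%, 95% exact Clopper-Pearson interval 62.3 to 74.0% with peaks taken as independent) had their midpoint there. The corresponding share was 50.6% of FLAG-NDX peaks outside the overlap, 61.8% of NDX-GFP peaks outside it and 20.9% of all genome windows with the width of the narrowest peak. By chromosome, the zone held 55 of 73 members on chromosome 1, 35 of 48 on chromosome 2, 31 of 51 on chromosome 3, 32 of 40 on chromosome 4 and 22 of 44 on chromosome 5. The share thus ran from 50% on chromosome 5 to 80% on chromosome 4, and on every chromosome it was above that of the unshared FLAG-NDX peaks, which ran from 40.6% on chromosome 5 to 59.9% on chromosome 4. It was also above that of the unshared NDX-GFP peaks on chromosomes 1 to 4, where the latter ran from 56.5% to 73.1%, but below it on chromosome 5, where 44 of 73 unshared NDX-GFP peaks (60.3%) were in the zone. The median distance from the middle of the zone was 1.46 Mb for members and 2.43 Mb for unshared FLAG-NDX peaks. In the arms, scores were much like those in the zones, with a median FLAG-NDX score of 129 against 131 and a median NDX-GFP score of 108 against 110.

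**Figure D2:**
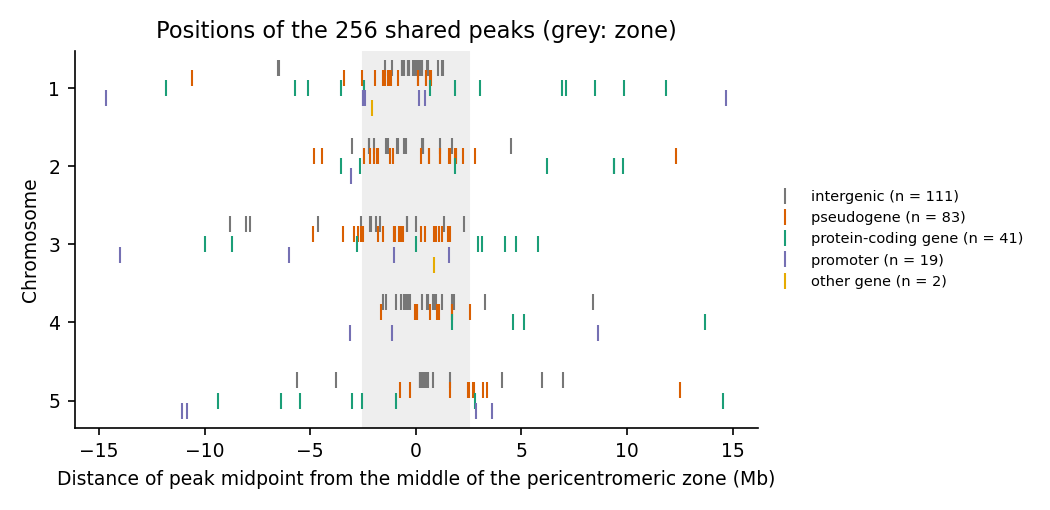
Position of each shared peak on the 5 chromosomes, as the distance in Mb of its midpoint from the middle of the pericentromeric zone (x axis), with 1 tick for each member, coloured by annotation. The grey band is the zone, which holds 175 of the 256 members, and ticks in protein-coding genes lie mostly outside it.

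Annotation at the midpoint placed 111 members in intergenic sequence (43.4%), 83 in pseudogenes (32.4%), 41 in protein-coding genes (16.0%), 19 within 1000 bp upstream of a protein-coding gene (7.42%, called promoters here) and 2 in other genes. Among FLAG-NDX peaks outside the overlap, pseudogenes took 17.9% and protein-coding genes 29.4%, and among NDX-GFP peaks outside it they took 21.4% and 19.3%. Of all genome windows, 8.70% had their midpoint in a pseudogene and 54.2% in a protein-coding gene. The share of pseudogenes was also high within each compartment. In the zones, 64 of 175 members (36.6%) were in pseudogenes, beside 26.8% of unshared FLAG-NDX peaks, 27.2% of unshared NDX-GFP peaks and 31.03% of windows there, and in the arms 19 of 81 (23.5%), beside 8.66%, 12.0% and 2.81%. Protein-coding genes held 7 members in the zones (4.00%), beside 8.65% of unshared FLAG-NDX peaks, 8.42% of unshared NDX-GFP peaks and 18.5% of windows. In the arms they held 34 members (42.0%), which was less than the 50.7% of unshared FLAG-NDX peaks and the 63.6% of windows and more than the 36.8% of unshared NDX-GFP peaks. In the zones intergenic sequence held 95 members (54.3%), which was less than the 59.7% of unshared FLAG-NDX peaks and the 59.9% of unshared NDX-GFP peaks and more than the 42.8% of windows. The nearest protein-coding gene was a median of 10632 bp away in the zones and 373 bp in the arms.

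**Figure D3:**
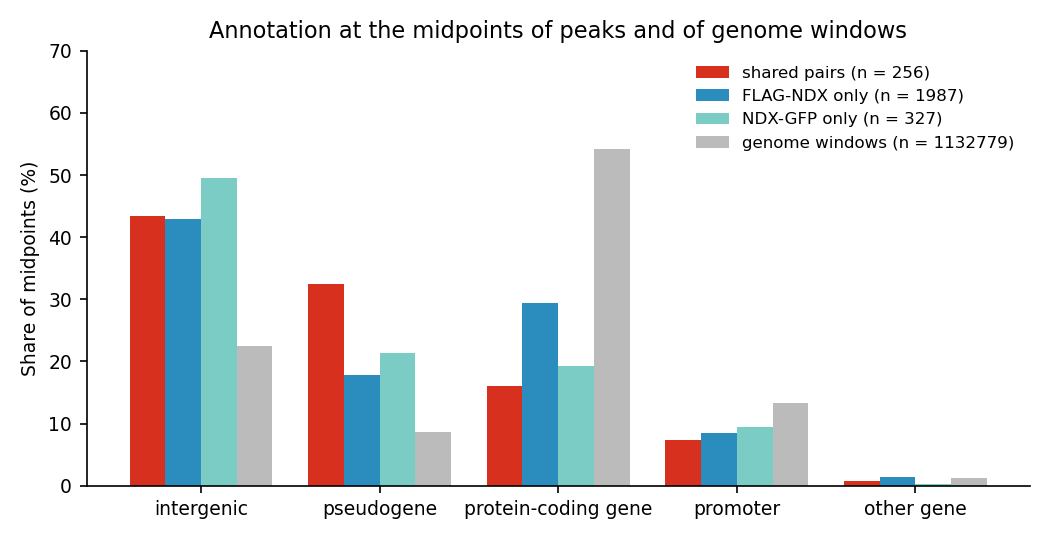
Share of midpoints (y axis, %) in each annotation class (x axis) for the 256 shared pairs, the 1987 FLAG-NDX-only peaks, the 327 NDX-GFP-only peaks and 1132779 genome windows as wide as the narrowest peak. The shared bar is the tallest for pseudogenes (32.4%) and the shortest for protein-coding genes (16.0%).

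Repeated sequence was common in the members. Only 84 of 256 held no 31-base word that occurs elsewhere in the genome (32.8%). In 44 every word was repeated (17.2%), beside 15.2% of unshared FLAG-NDX peaks and 12.2% of unshared NDX-GFP peaks. In the zones every word was repeated in 20.6% of members, beside 20.7% and 14.85%, and nothing is read from this count. Over the central bases of each peak to the width of the narrowest, which removes the difference in width, 37.9% of members were free of repeated words, beside 55.1% of unshared FLAG-NDX peaks, 44.0% of unshared NDX-GFP peaks and 81.4% of windows. In the zones these values were 25.7%, 34.2%, 31.2% and 49.2%, and in the arms 64.2%, 76.5%, 64.8% and 89.9%. How reads that match several places were treated is not given in the sources used here, and the part of this in the calls was not tested. None of the 256 held a 31-base word of the chloroplast or mitochondrial genome, which allows a share of up to 1.17%, taken as 3 counts of the total. Among unshared peaks, 1 of 1987 of FLAG-NDX and 0 of 327 of NDX-GFP held one.

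Some of the repeats were held in common. Members that shared at least 10 such words with another member formed 10 sets with 42 members in all, and 214 members shared fewer with any other. The largest set had 12 members on chromosome 5 between 11681401 and 12051585, all intergenic. Sequence within 2 kb of their midpoints repeated itself at a distance of 178 bp, with 36.8 to 62.2% identical bases (median 51.2%), and single words had up to 410 copies in the assembly. A satellite of this unit length is known to make up the core of Arabidopsis centromeres. FLAG-NDX scores in this set ranged from 107 to 175 with a median of 133, and NDX-GFP scores from 92 to 170.5 with a median of 117. In 5 of the 12 pairs the NDX-GFP score was the higher number. The pair at chr5:11874406-11874585, printed above, had scores of 151.5 and 170.5 over an overlap of 180 bp. Words of this set were also found outside the overlap, in 13 of the 1987 peaks of FLAG-NDX (0.654%) and 12 of the 327 of NDX-GFP (3.67%).

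The next set had 10 members on chromosome 1 between 14658466 and 14971920, also intergenic, in an array with a unit of 159 bp (53.7 to 74.95% identical bases, median 61.8%). Words had up to 205 to 251 copies. FLAG-NDX scores were high, from 128.5 to 379 with a median of 176, and NDX-GFP scores ran from 101 to 167 with a median of 120. At chr1:14660506-14660805 the FLAG-NDX score of 379 was the next below that of the CYP96A13 peak, and the NDX-GFP score was 142. Its neighbour at chr1:14658466-14658780 had scores of 197.5 and 167. All 10 members had the higher number in the FLAG-NDX list, beside 201 of all 256 pairs. Members of a set share sequence, and nothing is read from the difference to the chromosome 5 set. Outside the overlap, its words occurred in 57 peaks of FLAG-NDX (2.87%) and 8 of NDX-GFP (2.45%).

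**Figure D4:**
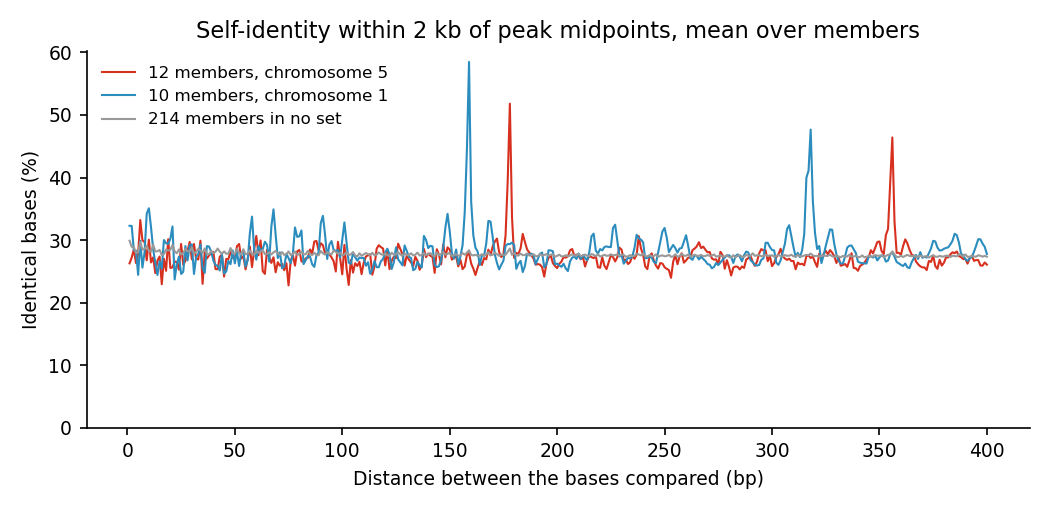
Mean share of identical bases (y axis, %) between positions a given distance apart (x axis, bp) within 2 kb of the peak midpoint, for the 12 members on chromosome 5, the 10 on chromosome 1 and the 214 members in no set. The first line peaks at 178 bp and the next at 159 bp, each with a further peak at a multiple of its unit. The members in no set reach 28.7% and 28.4% at these distances, beside a median of 27.6% over all distances.

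Counting every peak whose surroundings repeated at either distance with at least 40% identity, a limit chosen after the values were seen, 18 members (7.03%) lay in arrays of 178 bp and 14 (5.47%) in arrays of 159 bp, all of them in the zones. The former were 12 on chromosome 5, 4 on chromosome 4 and 1 each on chromosomes 2 and 3, and the latter 11 on chromosome 1 and 3 on chromosome 4. Of FLAG-NDX peaks outside the overlap, 2.16% and 4.23% lay in such arrays, and of NDX-GFP peaks outside it 6.12% and 3.98%, beside 0.290% and 0.196% of 4-kb genome windows. Of all 61 FLAG-NDX peaks in arrays of 178 bp, 29.5% were shared, and of all 98 in arrays of 159 bp, 14.3%. Without the arrays, 143 of 224 members (63.8%) were in the zones, beside 47.3% of unshared FLAG-NDX peaks. The assembly is known to lack most of the centromeric arrays, so the number of copies is a property of the assembly.

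Of the motifs searched, the telobox stood farthest above its share in the genome. It was searched as AAACCCTA on both strands in the same central bases of each peak, and 14 of 256 members held it (5.47%), beside 3.12% of unshared FLAG-NDX peaks, 2.45% of unshared NDX-GFP peaks and 1.40% of all windows. In the zones the shares were 6.29%, 4.97%, 3.96% and 1.90%, and in the arms 3 of 81 members held it (3.70%), beside 1.22% of unshared FLAG-NDX peaks, 0 of 125 unshared NDX-GFP peaks and 1.27% of windows. Over whole peaks, with overlapping matches counted, 22 members held at least 1 telobox (8.59%) and 11 held 3 or more. Of 1987 unshared FLAG-NDX peaks, 75 held at least 1 (3.775%) and 31 held 3 or more. Of 327 unshared NDX-GFP peaks, 10 (3.06%) and 4 did. Shared peaks were wider, and these whole-peak counts were not corrected for width. On chromosome 1 from 15148351 to 15436545, 11 of 14 members held a telobox and 10 held several. The ends of this stretch were set by its lowest and highest telobox-rich members, so the density within it follows in part from that choice. The share among unshared peaks of this stretch is not given here. Most matches, 13, were in chr1:15265951-15266355 (scores 220.5 and 108), followed by 9 in chr1:15271756-15272205 (146 and 117) and 6 in chr1:15435391-15435600 (112.5 and 96). A set of 4 members and a set of 3 members by shared words lay in this stretch, between 15225886 and 15436545, and all 7 had 3 or more teloboxes. Outside it, chr4:3235861-3236070 held 4, with scores of 108 and 110.

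The other motifs were near or below their share of genome windows. TAATTA, a palindromic core that many homeodomain proteins bind, was in the central bases of 8.20% of members, 7.35% of unshared FLAG-NDX peaks and 7.23% of windows. GAAGAA was in 16.8% of members and 16.7% of windows. GAGAGA was in 4.30% of members, 7.10% of unshared FLAG-NDX peaks, 8.87% of unshared NDX-GFP peaks and 9.50% of windows. In the zones its shares were 6.29%, 5.27%, 7.43% and 7.79%. In the arms 0 of 81 members held it, beside 8.97%, 11.2% and 9.95%. ACGTGT, the core of abscisic acid response elements, was in 0.781% of members, 2.11% of unshared FLAG-NDX peaks and 2.46% of windows. AAAAAAAA was in 2.34%, 3.47% and 7.07%. All were searched on both strands, and a match is a description and not a bound site. GC content did not set the members apart, with medians of 35.8% for members, 35.2% for unshared FLAG-NDX peaks and 36.2% for windows.

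Transposons were seen through similarity more than through annotation. The RefSeq annotation names 172 of its 37899 nuclear genes and pseudogenes after a transposon, and none of the 256 midpoints lay in such a gene, which by the same limit allows a share of up to 1.17%. Among unshared peaks, 3 of 1987 of FLAG-NDX (0.151%) and 0 of 327 of NDX-GFP lay in one, so nothing is read from this count. Of the 83 members in pseudogenes, 78 were in one described only as an uncharacterized protein. Translated similarity to the 172 genes was therefore searched, a step added after these values were seen. It was found within 2 kb of 85 members (33.2%), beside 22.1% of unshared FLAG-NDX peaks, 23.5% of unshared NDX-GFP peaks and 11.2% of 4-kb genome windows. Of the 83 pseudogene members 50 had it, and of the 111 intergenic members 28. Within the peak itself it was found in 31 members (12.1%), beside 6.49% and 6.73% of the unshared peaks. Shared peaks were wider, and this in-peak count was not corrected for width. By the best match within 2 kb, 22 members were near similarity to a gene named after a non-LTR element or a reverse transcriptase, and 21 near a CACTA or En/Spm element. These were followed by 14 near copia, 8 near Mutator, 8 near gag-pol, 6 near Athila, 4 near Sadhu and 2 near hAT. Matches of the non-LTR and reverse transcriptase group were at 8.59% of members, 4.18% of unshared FLAG-NDX peaks and 6.12% of unshared NDX-GFP peaks. For CACTA and En/Spm elements the shares were 8.20%, 7.20% and 6.73%. The former group rests on gene names, and terminal repeats were not examined. Similarity of any family was near 68 of the 175 members in zones and 17 of the 81 in arms, and the shares of unshared peaks were not split by zone.

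**Figure D5:**
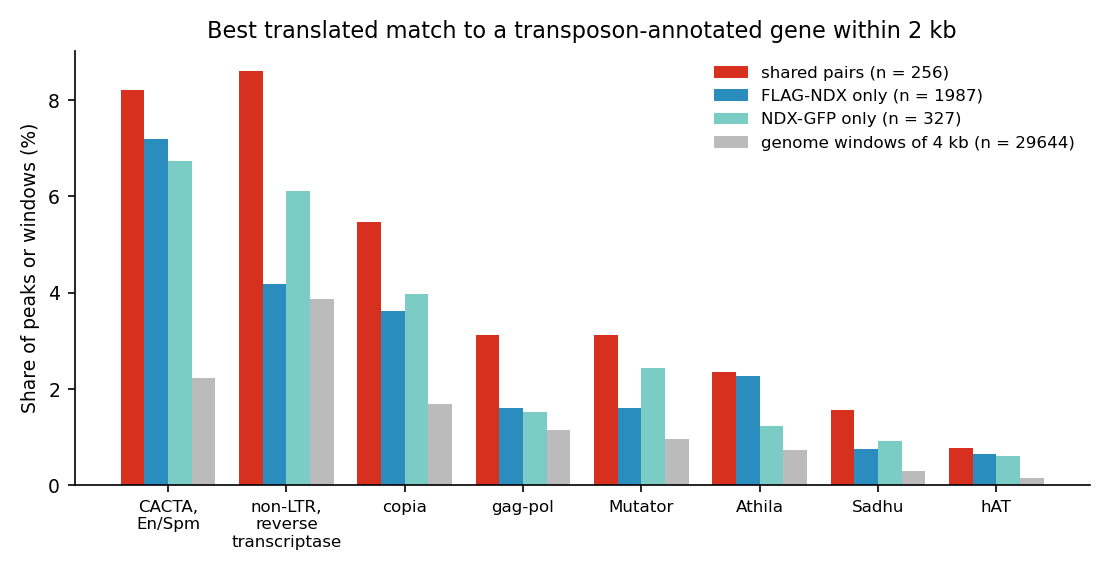
Share of peaks or genome windows (y axis, %) whose best translated match within 2 kb is to each transposon family (x axis), for the 256 shared pairs, the 1987 FLAG-NDX-only peaks, the 327 NDX-GFP-only peaks and 29644 windows of 4 kb. The shared bars are the tallest for each of the 8 families plotted, at 8.59% for non-LTR and reverse transcriptase elements and 8.20% for CACTA and En/Spm, and the smallest gap to the unshared FLAG-NDX peaks is for Athila and hAT.

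Within the peak, similarity to the non-LTR and reverse transcriptase group and to copia was found in 10 members each, and CACTA and En/Spm similarity in 7. The copia match with the highest FLAG-NDX score was in the pseudogene AT1G34967 at chr1:12759736-12759900, with scores of 164 and 149. The highest match of the non-LTR and reverse transcriptase group was in the pseudogene AT2G17910 at chr2:7779796-7780110, with 153.5 and 122. The highest CACTA and En/Spm match was intergenic, at chr5:11741656-11741820, with 173 and 112. These 3 members were chosen after their values were seen. The pseudogene AT1G38360, at 225 and 104 the pseudogene member with the highest FLAG-NDX score, lay near an Athila match, as its peak chr1:14439871-14440065 had one within 2 kb. A set of 3 members joined the pseudogenes AT1G32840 on chromosome 1, AT2G06430 on chromosome 2 and AT3G32389 on chromosome 3 by up to 91 shared words with up to 14 copies. Their FLAG-NDX scores were 127, 144.5 and 140 and their NDX-GFP scores 97, 103 and 123, with no transposon match near any of them. The search covered only the 172 genes named after a transposon, so a missing match does not set these pseudogenes apart from transposons.

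Some members also followed each other along the chromosome. Runs are described without a count among unshared peaks, so nothing is read from their number. Runs of 3 members with neighbouring midpoints within 10000 bp occurred 8 times, 4 of them on chromosome 1, and every run lay in a zone. The tightest was chr1:15388471-15393090, where a telobox peak (136 and 104) was followed by 2 peaks in the pseudogene AT1G40118 (87 and 113, then 180 and 95), near CACTA similarity. On chromosome 2, chr2:6157156-6162330 held FLAG-NDX scores of 136.5, 165 and 139.5 and NDX-GFP scores between 104 and 107, and 2 of these peaks were in the pseudogene AT2G14470. On chromosome 3, chr3:13078846-13085025 held scores of 181, 92 and 126.5 with NDX-GFP scores of 119, 110 and 133, the first upstream of the WRKY gene AT3G32090 and the others in the pseudogene AT3G32091. The runs at chr4:4048141-4057530 and chr5:11681401-11688450 lay in or beside arrays of 159 and 178 bp, respectively. All 3 members of the run chr1:14928136-14940825 also lay in an array of 159 bp. The remaining runs were chr1:15225886-15236385 and chr1:15431206-15436545. Besides AT1G40118, AT2G14470 and AT3G32091, the pseudogenes AT2G15870 and AT4G06572 held 2 members each. The only protein-coding gene with 2 members was AT2G34020, which encodes an EF-hand calcium-binding protein, with peaks in coding sequence at chr2:14371576-14371695 (126 and 101) and chr2:14372371-14372490 (144 and 98).

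Promoter members had the highest scores of any class with more than 2 members, with a median FLAG-NDX score of 141.5, beside 131 for intergenic, 129 for pseudogene and 124.5 for protein-coding members. Their median NDX-GFP score of 107 was not above the 109 of intergenic and 110 of pseudogene members. At CYP96A13, which encodes a cytochrome P450 monooxygenase, the peak chr5:673306-673500 had a midpoint 657 bp upstream of the gene and scores of 433 and 126.5. Its NDX-GFP partner covered 135 bp of it. The thionin family genes AT1G34830 and AT1G34850, which belong to a class of small defence peptides, each had a member upstream. The first, chr1:12794071-12794280, had a midpoint 152 bp upstream and scores of 228.5 and 185, and the other, chr1:12800491-12800670, 9 bp upstream and scores of 174 and 131. Every 31-base word of both peaks was repeated, with up to 14 and 15 copies, so which copy the reads came from cannot be told apart here. The FLAG-NDX peak that abutted an NDX-GFP peak without overlap, chr1:12800026-12800220, lay beside the latter. A further promoter member, chr4:12120511-12120675 with scores of 121.5 and 116, stood between the divergent receptor kinase genes CRK5 (373 bp) and CRK6 (776 bp) and was named after its values were seen.

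Pairs that led the NDX-GFP list were often not those that led the FLAG-NDX list. The highest NDX-GFP score, 200, belonged to chr1:8789266-8789475 beside the pseudogene AT1G24938, with a FLAG-NDX score of 218. All its words were repeated, with up to 4 copies, as were those of chr1:8808361-8808555 near the glutamine amidotransferase gene AT1G25083 (231 and 142, up to 5 copies). Besides the first of these, only the thionin peak at chr1:12794071-12794280 was among the 10 members with the highest scores in both lists. Choosing members by a leading NDX-GFP score favours a higher number in that list, so the order of the scores below is only a description. A pair of such members lay on chromosome 3, each with the higher number in the NDX-GFP list. The non-coding RNA gene AT3G06485 held chr3:14953711-14953815 (148 and 190), 600 bp from the pollen receptor kinase gene PRK3, and the adjacent pseudogene AT3G42875 held chr3:14951671-14951895 (114.5 and 173). The pseudogenes AT2G15150 (147.5 and 181) and AT4G08275 (157 and 181) showed the same order, and so did AT5G36125 (135.5 and 153), near a copia match, and the receptor kinase gene AT3G46350 (128 and 157). The peak in AT4G08275, chr4:5223721-5223870, held no repeated word and the pair overlapped over all its 150 bp. The remaining members with a leading FLAG-NDX score were intergenic on chromosome 1. They were chr1:16349101-16349280 (256.5 and 143), 2715 bp from the sugar transporter gene AT1G43310, chr1:15475801-15476040 (235.5 and 93.5) near CACTA similarity and chr1:15586066-15586305 (213 and 117) near gag-pol similarity.

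In protein-coding genes, 21 of the 41 midpoints were in coding sequence, 1 in an exon outside it and 19 in introns. For the unshared FLAG-NDX peaks these counts were 270, 82 and 232. Of the 41 members, 9 were in a gene with a symbol. The highest score was in an intron of BGLU5, a beta-glucosidase gene, at chr1:22220671-22220865 (199.5 and 119). ESP3, a gene for an RNA helicase of pre-mRNA splicing, followed with a peak in coding sequence at chr1:11745646-11745840 (177 and 93). NPSN11, which encodes a SNARE protein of membrane fusion at the cell plate, had scores of 165.5 and 93 in coding sequence, and D2HGDH, which encodes D-2-hydroxyglutarate dehydrogenase, 126 and 95 in an intron. The peaks in AAE15, a gene for an acyl-activating enzyme (114 and 117), and AGD2, which encodes an ARF GTPase-activating protein of vesicle traffic (111 and 104), were in introns. HAC2, a histone acetyltransferase gene, held a peak in coding sequence (107.5 and 124) whose words were repeated to 77.9%. NAI2, required for endoplasmic reticulum bodies, had scores of 106 and 104. ER encodes the receptor kinase ERECTA, which shapes organ growth and stomatal patterning, and its peak at chr2:11212606-11212725 had a FLAG-NDX score of 90 and an NDX-GFP score of 127. Except in HAC2, these peaks held no repeated word.

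Genes of the pathways linked to NDX were looked up next to the members. Of 30 genes of small RNA and DNA methylation pathways, 27 were matched by symbol and 0 had a shared peak within 1 kb. The nearest was RDR2, which encodes the polymerase that makes double-stranded precursors of small interfering RNA, with a member 4279 bp away, and the median distance was 401312 bp. Of 15 genes of Polycomb proteins, NDX partners and flowering, all were matched and 0 had a shared peak within 1 kb, with the nearest member 57333 bp away and a median of 490685 bp. Of all 27444 protein-coding genes, 97 had a shared peak within 1 kb (0.353%), so lists of this length would hold few or none at that share, and nothing is read from these counts. Of the 256 members, 77 (30.1%) lay within 1 kb of a protein-coding gene, beside 44.5% of the FLAG-NDX list and 36.4% of the NDX-GFP list outside the overlap.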

How the data were processed

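The peaks came from ChIP-seq of seedlings with FLAG-NDX or NDX-GFP. The authors deposited, for each line, 1 list giving chromosome, start, end, name and a score of unstated unit. Whether reads were pooled before peaks were called is not given in the sources used here. The submitters' processing notes name Bowtie2, SAMtools, Picard, deepTools, MACS2 and TAIR10, with neither versions nor settings. Depth is unknown. The lists count starts from 0, and coordinates were converted to 1-based positions on TAIR10.1 and its RefSeq annotation (0 peaks beyond chromosome ends). A midpoint took the first class that it matched, in the order of protein-coding gene, pseudogene, other gene, promoter and intergenic sequence.

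Words of 31 bases were counted on both strands of the nuclear and organelle sequences. Transposon similarity was searched with tblastx (BLAST+ 2.17.0, e-value 1e-10). The scripts (Python 3.11.15, numpy 2.4.6, pandas 2.3.3, SciPy 1.17.1) were tested on simulated data. No test was made, because peaks of 1 list are not replicates. Named were the 10 pairs with the highest score in each list, runs of 3 or more members, genes with 2 or more members, the 5 largest sets with shared words, protein-coding genes with a symbol that hold a member and pathway genes within 1 kb. Members and lists were chosen with earlier results of these data known. Alternatives changed the overlap rule, score minimum, zone width, gene assignment, word length and which list gave the position.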

Additional observations from a re-analysis of the deposited data

How the results depend on the processing

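No paired analysis was possible because only 1 list was available per tagged line, and for the same reason no replicate could be left out. The number of shared peaks was 199 with reciprocal overlap of 50%, 357 with midpoints within 1 kb and 188 with a score of at least 100 in both lists, beside 256, and it fell to 111 when only the upper part of each list by score was kept, which by construction holds fewer peaks. With that restriction 9.01% of members were in protein-coding genes, beside 16.0%, and the cause was not tested. The share in pericentromeric zones was 50.8% with a half-width of 1.5 Mb and 80.9% with 4 Mb, as narrower and wider zones hold fewer and more peaks by construction. The share free of repeated words was 20.3% with words of 21 bases, of which more are repeated. Transposon annotation at the midpoint gave 0, and translated similarity gave 33.2% within 2 kb and 12.1% in the peak. These searches and the count without tandem arrays were chosen after seeing the data. The other 36 of 43 alternatives, for the 6 results, stayed within the 95% binomial interval of the value given or within 1.5 times the count. Many of them reuse the same peaks, and the interval takes peaks as independent. Where the count was 0, settings that only drop members could give nothing but 0. The 36 are therefore a description and not a measure of how robust the results are. Without read counts or replicates, the lists cannot show how far each peak varies between samples.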
